A study of Rattus norvegicus with 30 samples.

Results

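The proteasome genes of rat lung were followed after inhalation of copper oxide nanoparticles. All genes measured on the array whose symbol begins with Psma, Psmb, Psmc, Psmd or Psme and a digit were taken, which gave 43 of the 26913 genes on the array. Psma8, a testis form of a core subunit, had a signal well above background on only 3 of 30 arrays and was left out, so 42 of the 18421 genes tested were members, and each of these 42 was well above background on all 30 arrays. Among them, 5 are the inducible genes of the immunoproteasome (Psmb8, Psmb9, Psmb10, Psme1 and Psme2) and 37 are the others. Psmc3ip, a cofactor of meiotic recombination, and Psme3ip1, a binding partner of the nuclear activator Psme3, carry such symbols but encode no proteasome subunit. They are counted among the 37 and named apart.

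The proteasome is the large protease that degrades proteins marked with ubiquitin. Its core is a barrel of alpha and beta rings with 3 catalytic beta subunits inside, and a regulatory particle of ATPases and other subunits recognises, unfolds and feeds in the substrates. In cells that receive interferon gamma, and constitutively in many leukocytes, the catalytic subunits Psmb5, Psmb6 and Psmb7 are replaced in newly built cores by Psmb8, Psmb9 and Psmb10, and the activator made of Psme1 and Psme2 can cap the core. This immunoproteasome makes many of the peptides that class I molecules present to T cells, and in lung it is known chiefly from inflammation and infection.

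The lungs came from 30 adult male rats of the outbred Wistar Unilever strain HsdCpb:WU, 8 weeks old when obtained, with 1 array per rat and 5 rats in each of 6 groups. Groups breathed air only, 3.3 mg/m3 (low dose) or 13.2 mg/m3 (high dose) of copper oxide nanoparticles (CuO NPs) through the nose on 5 days in a row, as the equivalent of 6 hours a day, and were sampled 1 day later (day 6) or 22 days after the last exposure (day 28). Whole lung was used, so no cell type was sorted. No transgene is named for the strain. Each value below is a log2 ratio of lung RNA to a common reference RNA, or a difference of such ratios between groups, with adjusted p from limma over all 18421 genes and a threshold of 0.05.

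The arrays had a median lung signal (Cy5 intensity) of 216 to 432, and 59.5% to 68.4% of probes were well above background. Lung epithelium and endothelium markers were all measured (10 of 10) and averaged 5.08 to 5.89 across the rats. In 7 heart muscle genes, air rat 4 of day 6 averaged 4.72 against a median of -0.34 in its group, and the highest rat of 3 other groups averaged 1.74 to 2.58. The count of members at the high dose on day 6 without any single rat, that one included, was 19 to 28.

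Promoter windows are printed here for the inducible genes other than Psme1 and for 1 constitutive counterpart. They show where motifs of interferon and antioxidant factors lie. RefSeq windows of GRCr8, from 250 bases before to 50 after the annotated start, were found for 38 of the 42 members. The interferon-stimulated response element was searched as GAAA, any 2 bases and GAAA on both strands, and 3.92% of all 33469 promoters held a match. The gamma-activated site TTCNNNGAA (8.87% of all promoters) and the antioxidant response element TGACNNNGC (12.1%) were searched in the same way. No match of one motif overlapped another in the windows shown, and matches are in capitals. Psmb10 (chr19:50743243-50743542, minus strand) held 2 matches to the first motif, beginning 73 and 17 bases before the start. Psme2 (chr15:33052702-33053001, minus strand) held 1 at 53 bases before the start. Psmb8 (chr20:4656982-4657281, minus strand) held 1 at 4 bases before the start, on the opposite strand, and a gamma-activated site at 245 bases. The windows of Psmb9 (chr20:4668750-4669049, plus strand) and of Psmb5, the constitutive counterpart of Psmb8 (chr15:32047330-32047629, minus strand), held no match to the first motif, and that of Psmb5 held 1 antioxidant response element.
Psmb8: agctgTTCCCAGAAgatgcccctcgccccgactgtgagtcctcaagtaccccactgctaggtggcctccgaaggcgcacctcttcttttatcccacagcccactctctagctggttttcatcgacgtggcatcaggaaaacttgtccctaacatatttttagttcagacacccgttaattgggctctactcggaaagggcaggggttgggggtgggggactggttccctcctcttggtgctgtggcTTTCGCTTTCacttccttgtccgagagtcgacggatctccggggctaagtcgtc
Psmb10: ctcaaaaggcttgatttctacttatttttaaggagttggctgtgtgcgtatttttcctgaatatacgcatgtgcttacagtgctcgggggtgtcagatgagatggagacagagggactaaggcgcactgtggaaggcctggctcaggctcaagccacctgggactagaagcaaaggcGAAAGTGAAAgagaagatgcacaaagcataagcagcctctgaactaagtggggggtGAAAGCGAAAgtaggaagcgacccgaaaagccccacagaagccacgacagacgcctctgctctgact
Psme2: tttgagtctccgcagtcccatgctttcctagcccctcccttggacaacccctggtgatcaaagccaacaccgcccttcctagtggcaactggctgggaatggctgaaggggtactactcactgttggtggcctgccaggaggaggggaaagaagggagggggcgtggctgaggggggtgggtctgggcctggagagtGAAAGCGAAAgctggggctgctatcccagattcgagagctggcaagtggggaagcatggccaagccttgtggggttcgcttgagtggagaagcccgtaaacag
Psmb9: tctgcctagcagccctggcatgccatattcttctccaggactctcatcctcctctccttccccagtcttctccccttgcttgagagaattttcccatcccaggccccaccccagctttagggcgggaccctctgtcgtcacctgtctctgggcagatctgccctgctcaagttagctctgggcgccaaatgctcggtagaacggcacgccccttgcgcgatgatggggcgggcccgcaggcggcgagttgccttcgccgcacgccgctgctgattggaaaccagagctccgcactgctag
Psmb5: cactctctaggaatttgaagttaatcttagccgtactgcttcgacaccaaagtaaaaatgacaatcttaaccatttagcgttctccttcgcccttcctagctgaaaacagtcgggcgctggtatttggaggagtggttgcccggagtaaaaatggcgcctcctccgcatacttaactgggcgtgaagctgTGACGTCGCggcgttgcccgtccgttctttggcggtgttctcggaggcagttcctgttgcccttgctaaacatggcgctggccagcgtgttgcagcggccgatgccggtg
In all, 3 of the 5 inducible and 3 of the 33 other windows held the interferon-stimulated element, 1 of 5 and 3 of 33 the gamma-activated site, and 0 of 5 and 8 of 33 the antioxidant element. The window of Psme1, which is not printed, held no match to any of these motifs. The other windows with the interferon-stimulated element were those of Psma4, Psmb3 and Psmd7. The Psmb9 window shares its outer 44 bases (chr20:4668750-4668793) with the window of Tap1, the peptide transporter gene read in the opposite direction, and the annotated starts of both lie 457 bases apart. These matches are letters in a window; binding was not measured.

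On the day after the last high dose exposure, the catalytic subunits of the immunoproteasome and both genes of its activator rose against air rats, as did 20 of the 35 other subunit and assembly genes. Of the 42 members 27 rose, 1 fell and 14 did not pass, where 36.5% of all genes passed (21% higher and 15.5% lower). All 5 inducible members rose, as did 22 of the 37 others. The median difference was 0.90 over the 5 inducible members, 0.30 over the 37 others and 0.01 over all genes. Whole lung RNA cannot tell more cells of a type from more RNA per cell, and this holds for each difference below.

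**Figure D1:**
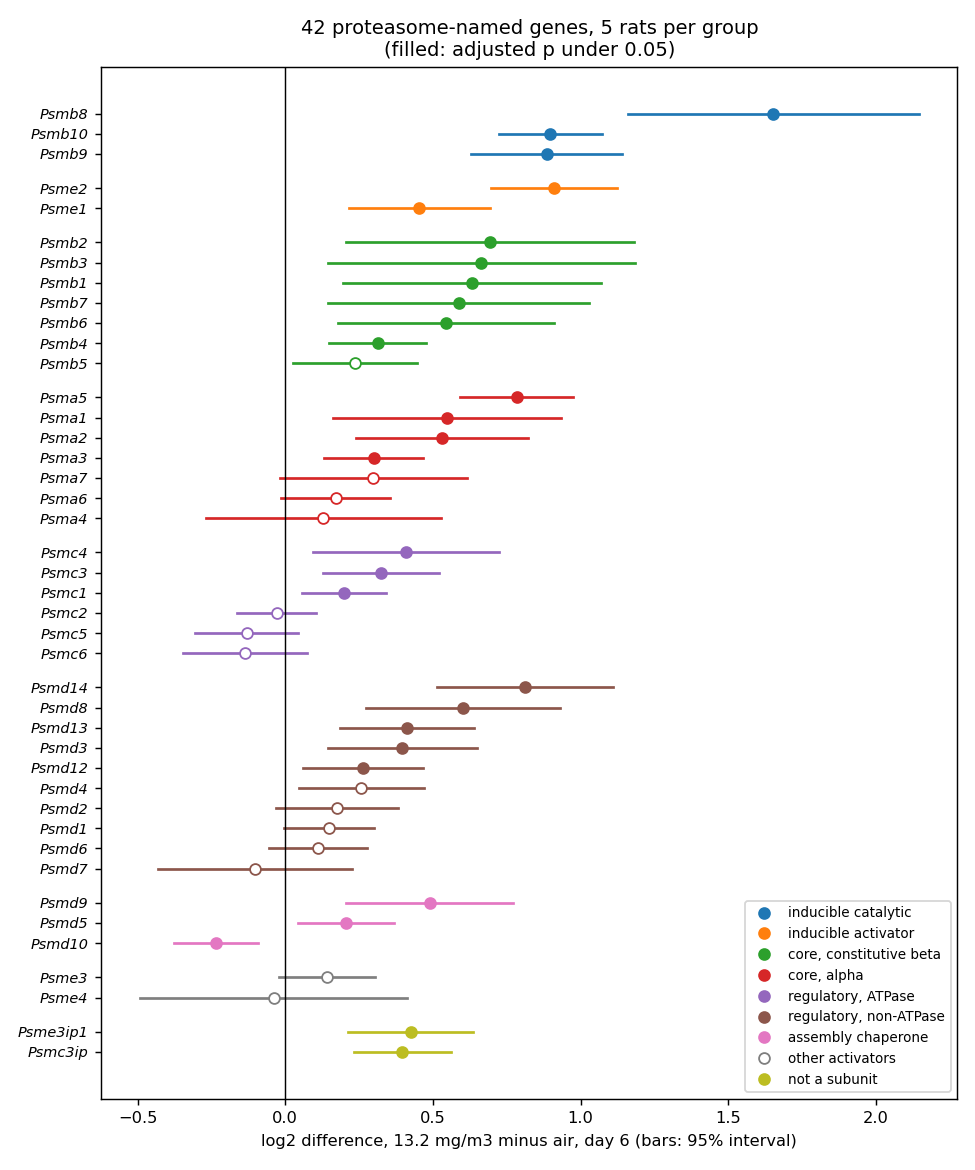
Log2 difference between high dose and air rats on day 6 for each of the 42 members, grouped by role, with 95% intervals (5 rats per group); filled points passed an adjusted p of 0.05. Psmb8 lies farthest to the right at 1.65, and Psmd10 is the filled point left of 0.

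Psmb8 encodes the inducible subunit that takes the place of Psmb5 and cuts after hydrophobic residues. Its log2 ratio was -0.71, -1.26, -0.80, -1.31 and -0.94 in the air rats of day 6. It was 0.31, 0.85, 0.96, 0.64 and 0.47 in the high dose rats. Every high dose rat lay above every air rat, and the difference of 1.65 ± 0.24 (SE, n = 5 rats per group, limma adjusted p = 3.57e-06) is 3.14-fold. Within the 4 array slides it was 1.63 to 1.82.

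Psmb10, the inducible subunit that replaces Psmb7, had log2 ratios of 1.36, 1.29, 1.54, 1.20 and 1.18 in air rats and of 2.07, 2.08, 2.25, 2.24 and 2.41 in high dose rats. The groups did not overlap, and the rats of each group lay close together. It rose by 0.90 ± 0.09 (limma adjusted p = 2.51e-09), the smallest p of the 42 members. Psmb9, the inducible subunit that replaces Psmb6, was at 0.78, 0.45, 0.99, 0.47 and 0.55 in air rats and at 1.29, 1.54, 1.65, 1.68 and 1.51 in high dose rats. The lowest high dose rat was above the highest air rat, and the difference was 0.88 ± 0.12 (limma adjusted p = 2.23e-06).

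The activator genes rose to different extents. Psme2, the beta subunit of the activator ring, was at 0.58, 0.56, 0.73, 0.39 and 0.45 in air rats and at 1.32, 1.42, 1.58, 1.56 and 1.37 in high dose rats, with no overlap. It rose by 0.91 ± 0.10 (limma adjusted p = 7.09e-08). Psme1, the alpha subunit of the same ring, was at 1.35, 1.23, 1.44, 1.15 and 1.15 in air rats and at 1.80, 1.86, 1.82, 1.71 and 1.39 in high dose rats. High dose rat 79 lay below the highest air rat, and the rise of 0.45 ± 0.12 (limma adjusted p = 0.003) did not pass when arrays were centred on their median in place of loess (adjusted p = 0.0541).

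**Figure D2:**
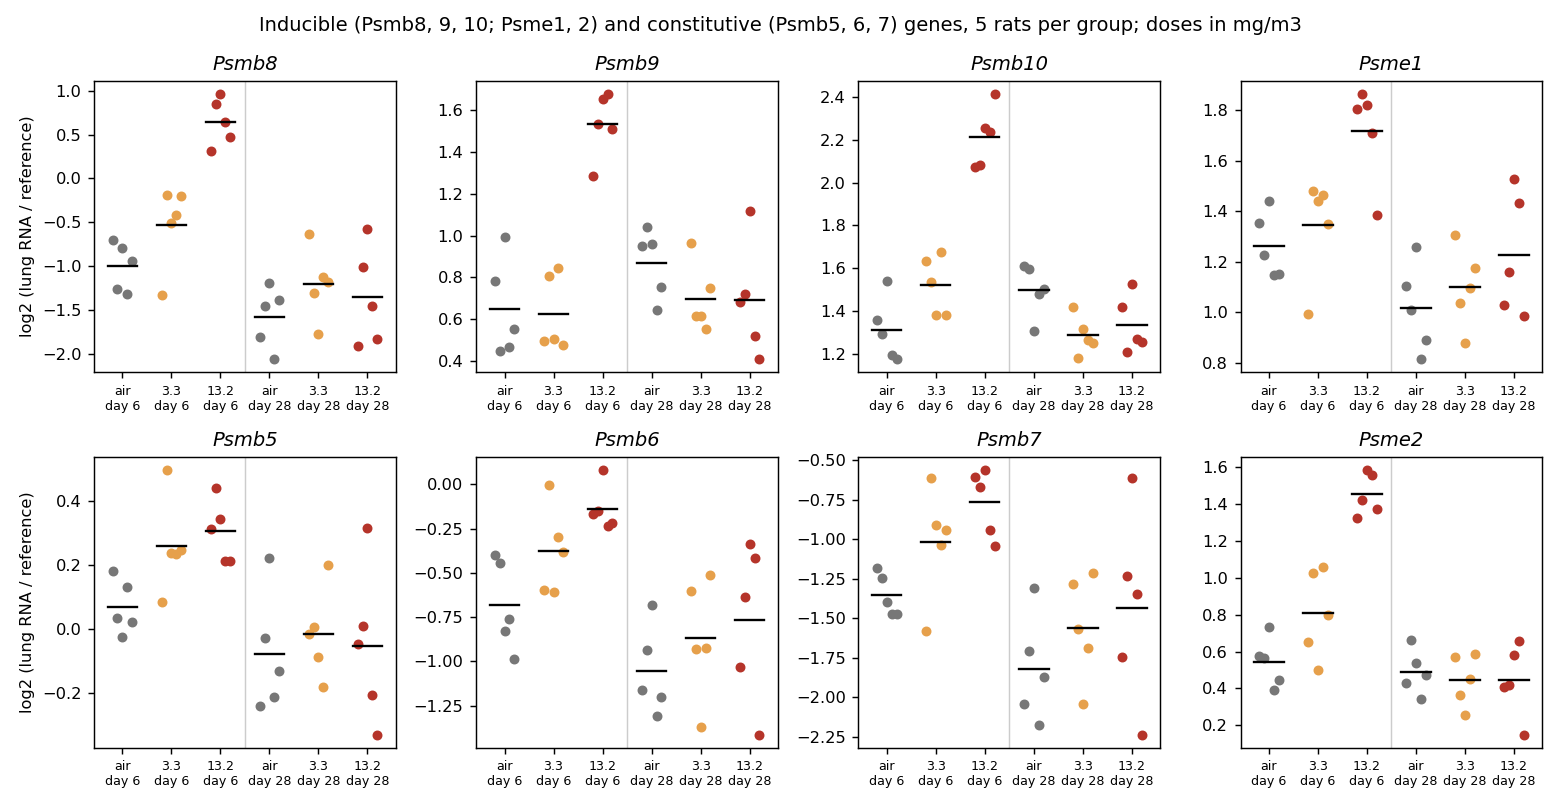
Log2 ratio of lung RNA to the reference in each rat (points, 5 per group) with the group mean (line), for the 5 inducible genes and the 3 constitutive catalytic genes, at each dose in mg/m3 and day. High dose rats of day 6 lie above all other rats in Psmb8, Psmb9, Psmb10 and Psme2; each panel has its own scale.

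Among the constitutive catalytic genes, Psmb6 and Psmb7 rose. Psmb5 was at 0.18, 0.04, -0.03, 0.13 and 0.02 in air rats and at 0.31, 0.44, 0.35, 0.21 and 0.21 in high dose rats. These groups did not overlap, yet the difference of 0.24 ± 0.10 did not pass (limma adjusted p = 0.0707). It passed with slide as a block (0.0157), from the Cy5 channel (0.0402), when just the groups compared were fitted (0.0212) and with array brightness as a covariate (0.0134). Psmb6 was at -0.40, -0.44, -0.83, -0.76 and -0.99 in air rats and at -0.17, -0.15, 0.08, -0.23 and -0.22 in high dose rats, and rose by 0.54 ± 0.18 (limma adjusted p = 0.0174). Its call was lost without air rat 5 (0.0568) and without high dose rat 77 (0.0502). Psmb7 was at -1.18, -1.24, -1.40, -1.47 and -1.47 in air rats and at -0.61, -0.67, -0.56, -0.94 and -1.04 in high dose rats. It rose by 0.59 ± 0.22 (limma adjusted p = 0.0331), with no overlap. Leaving out air rat 3, 4 or 5 or high dose rat 75, 76 or 77 ended the call (adjusted p = 0.0573 to 0.0777). Relative to its counterpart, and as a change from air rats in the same animal, Psmb8 exceeded Psmb5 by 1.42 ± 0.23 (SD, n = 5; 1.07 to 1.69). The excess was 0.34 ± 0.17 for Psmb9 over Psmb6 (0.13 to 0.58) and 0.31 ± 0.33 for Psmb10 over Psmb7 (0.02 to 0.79). Every high dose rat thus had a larger change in the inducible gene of each pair, by margins close to 0 in 1 rat for the last. Air rats of day 6 ranged from -0.37 to 0.30 for the first pair. They ranged from -0.44 to 0.49 for the second and from -0.13 to 0.27 for the third. High dose rats therefore lay above all air rats for Psmb8 over Psmb5 only, and the other 2 pairs overlapped air.

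Of the 7 alpha ring genes, which gate the core, 4 rose and none fell. Psma5 was at -0.67, -0.66, -0.86, -0.93 and -0.93 in air rats and at -0.07, -0.14, 0.16, -0.11 and 0.04 in high dose rats. With no overlap and a rise of 0.78 ± 0.09 (limma adjusted p = 1.56e-07), it had the largest difference of the 7. Psma2, the next alpha gene by p, rose by 0.53 ± 0.14 (limma adjusted p = 0.00417). Of the 7 constitutive beta genes 6 rose, among them Psmb4, a structural subunit, by 0.31 ± 0.08 (limma adjusted p = 0.00278).

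The regulatory particle moved in part. Of its 6 ATPase genes, which unfold substrates, 3 rose with a median difference of 0.08 over the 6. Of its 10 other subunit genes 5 rose. Psmd14, the enzyme that removes ubiquitin chains from arriving substrates, was at -1.36, -1.26, -1.33, -1.44 and -1.41 in air rats and at -0.63, -0.68, -0.24, -0.69 and -0.51 in high dose rats. Its groups did not overlap and it rose by 0.81 ± 0.15 (limma adjusted p = 6.28e-05). Psmd8 and Psmd13, both lid subunits, rose by 0.60 ± 0.16 (limma adjusted p = 0.00404) and 0.41 ± 0.11 (0.00428). Among the 3 chaperones that assemble the ATPase ring, Psmd9 rose by 0.49 ± 0.14 (0.00616) and Psmd5 also rose, whereas Psmd10, also known as the oncoprotein gankyrin, was the member that fell, by 0.23 ± 0.07 with overlapping groups (0.00928). The activators Psme3 and Psme4, which cap the core in other settings, did not pass. Psmc3ip and Psme3ip1, which encode no subunit, rose by 0.40 ± 0.08 (0.000269) and 0.42 ± 0.10 (0.00188). Psmd5 and Psmd10 were named after their values were seen.

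The number of members called depended on the scaling of the arrays, whereas the size of their median difference above all genes changed little. With median centring, 6 members still rose at the high dose on day 6, namely Psmb8, Psmb9, Psmb10, Psme2, Psma5 and Psmd14, all of them among the 27. On the Cy5 channel by itself 23 rose and 1 fell, where 18.3% of all genes were higher. From the authors' values, 20 rose and 2 fell, where 17.2% of all genes were higher. The median of members above the median of all genes was 0.32 to 0.35 under these scalings. Over all genes 57.6% of calls were higher, against 43.5% when centred on the median, 46.9% from the Cy5 channel and 46% from the authors' values. With at least a 1.5-fold change, 11 members were called, and the share of all genes at that minimum was not counted.

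Averaged per rat as changes from the air rats of the same day, the 5 inducible members stood at 0.808, 0.998, 1.102, 1.013 and 0.879 in the high dose rats of day 6. The 37 others stood at 0.26, 0.29, 0.45, 0.24 and 0.32 in the same rats. The inducible average exceeded the other by 0.65 ± 0.09 (SD, n = 5), from 0.55 to 0.77, while air rats of day 6 ranged from -0.11 to 0.22. High dose and air rats did not overlap, and the excess was 0.43 to 0.78 within the 4 slides. As a score over chosen genes it was given no test.

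**Figure D3:**
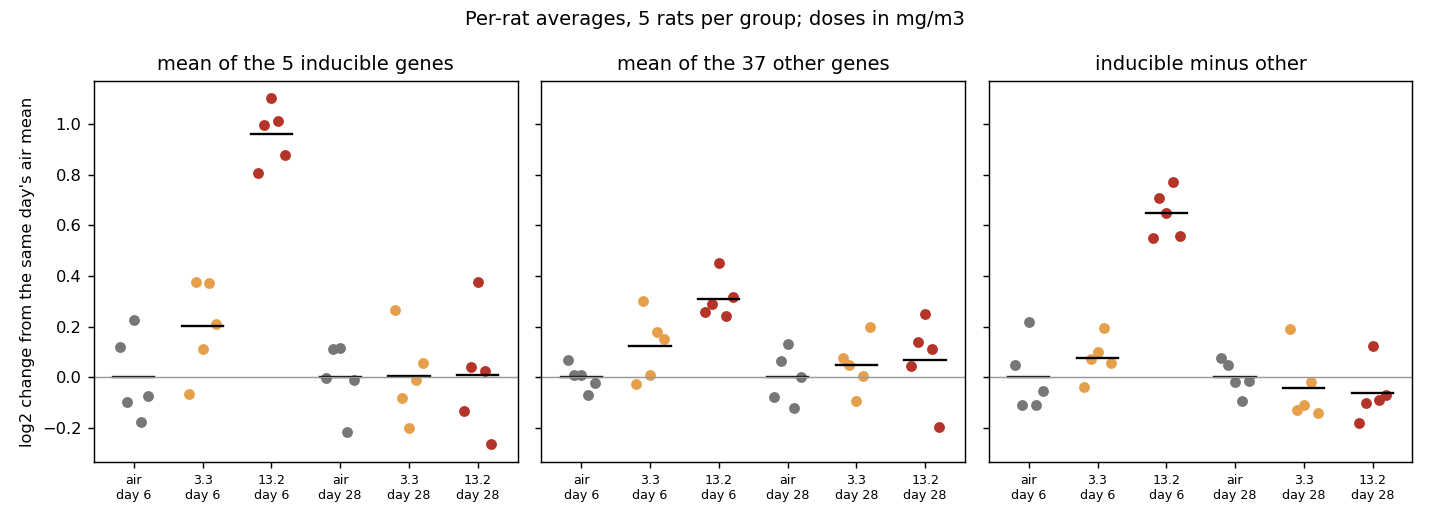
Average change of the 5 inducible genes (left), of the 37 other members (middle) and the difference of both (right) in each rat, on the log2 scale against the air mean of the same day; lines are group means of 5 rats. The 5 high dose rats of day 6 range from 0.55 to 0.77 on the right, and the other exposed groups overlap air rats.

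At the low dose few of these differences passed on day 6, although single rats exceeded the air rats in several genes. By limma 1 of 42 members rose and none fell, where 6.71% of all genes passed (4.96% higher and 1.75% lower). That member was Psmc3ip, which is no subunit (0.33 ± 0.08, adjusted p = 0.00934; 0.0654 when just the groups compared were fitted), and 8 members had an unadjusted p under 0.05, as did 20.3% of all genes. None of the 5 inducible members passed. Psmb8 was at -1.33, -0.20, -0.51, -0.42 and -0.20, with low dose rat 47 below all air rats and the other 4 above them, and its difference from air was 0.47 ± 0.24 (95% interval -0.02 to 0.96, adjusted p = 0.268). Psmb9 was at 0.49, 0.81, 0.50, 0.84 and 0.47, inside the span of the air rats (-0.02 ± 0.12). Psmb10 was at 1.63, 1.54, 1.38, 1.68 and 1.38 and Psme2 at 0.65, 1.02, 0.50, 1.06 and 0.80. Both groups overlapped air, with differences of 0.21 ± 0.09 (adjusted p = 0.147) and 0.27 ± 0.10 (0.128). Psme1 was at 0.995, 1.48, 1.44, 1.47 and 1.35 and differed by 0.08 ± 0.12. Psmd14 and Psma5 came next to Psmc3ip by p, at 0.44 ± 0.15 (0.0642) and 0.26 ± 0.09 (0.0991). Without low dose rat 49, Psmd14, Psma5 and Psme2 passed as well (0.0129, 0.0494 and 0.041), and Psmd14 also passed without rat 47 (0.0391), with slide as a block (0.048) and with array brightness as a covariate (0.0373). The inducible average exceeded the other by 0.08 ± 0.08 (SD, n = 5; -0.04 to 0.19), inside the air range. By pair, the change in Psmb9 minus that in Psmb6 averaged -0.33 (-0.52 to -0.19, against -0.44 to 0.49 in air rats). It averaged -0.12 for Psmb10 minus Psmb7 and 0.28 for Psmb8 minus Psmb5.

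The doses themselves differed most clearly in the inducible genes. Between high and low dose rats of day 6, 7 of 42 members were higher and none lower, where 11.9% of all genes passed (8.01% higher and 3.85% lower). All 5 inducible members were among the 7, with differences of 1.18 ± 0.24 for Psmb8 (limma adjusted p = 0.00118), 0.91 ± 0.12 for Psmb9 (8.31e-06) and 0.69 ± 0.09 for Psmb10 (1.93e-06). Psme2 was higher by 0.64 ± 0.10 (8e-05) and Psme1 by 0.37 ± 0.12 (0.036), a call that 9 alternatives ended. Psma5 (0.53 ± 0.09, adjusted p = 0.000267) and the ATPase gene Psmc1, named after its values were seen (0.23 ± 0.07, adjusted p = 0.0308), made up the 7. When arrays were centred on their median, Psmb8, Psmb9 and Psmb10 were called (0.0101, 0.00301 and 0.0102), where 3.73% of all genes were higher. Psma5 (0.0925), Psme1 (0.3) and Psme2 (an adjusted p that rounds to 0.05) were not. The constitutive counterparts did not pass, at 0.05 ± 0.10 for Psmb5, 0.24 ± 0.18 for Psmb6 and 0.26 ± 0.22 for Psmb7.

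By day 28 no member differed from air by limma at either dose. At the high dose 0 of 42 passed, where 0.185% of all genes did (0.076% higher and 0.109% lower), and 3 members had an unadjusted p under 0.05, all lower (Psmc5, Psmd9 and Psmc2), against 15.1% of all genes. Without air rat 8, Psmd9 passed (0.0311), but its second probe was at 0.05 (adjusted p = 0.853) where the probe used was at -0.42. At the low dose 0 of 42 passed, where 0.0109% of all genes did, with 4 members at an unadjusted p under 0.05, all lower (Psma3, Psmc2, Psmb10 and Psmd9), against 5.94% of all genes. The second Psmd9 probe was at 0.04 there (adjusted p = 0.941). Between the doses 0 of 42 passed, where 0.141% of all genes did (0.0706% higher and 0.0706% lower), and 0 had an unadjusted p under 0.05. Array brightness differed between the groups. Its median (Cy5 intensity) was 277 in air, 316 in low dose and 359.5 in high dose rats of day 28. In air rats of day 6 it was 342.5. Within groups, r with array brightness was -0.60 for Psmc5 and Psmd9, -0.46 for Psmc2, -0.48 for Psma3 and -0.13 for Psmb10. Whether brightness brought about these differences was not tested. Psmb8 was at -1.80, -1.46, -1.20, -2.06 and -1.38 in air rats, at -0.64, -1.31, -1.77, -1.13 and -1.18 in low dose rats and at -1.91, -1.01, -0.58, -1.46 and -1.83 in high dose rats. The 3 groups overlapped, and the high dose difference was 0.22 ± 0.24. Psmb10 was at 1.613, 1.598, 1.307, 1.482 and 1.504 in air rats and at 1.42, 1.21, 1.53, 1.27 and 1.26 in high dose rats, overlapping at -0.16 ± 0.09. For Psmb9 the high dose difference was -0.18 ± 0.12, for Psme2 -0.05 ± 0.10 and for Psme1 0.21 ± 0.12. The largest shift by p was that of Psmc5, an ATPase gene, at -0.28 ± 0.09 (limma adjusted p = 0.156), which also had the smallest p between the doses (-0.13 ± 0.09, adjusted p = 1). The intervals for Psmb10 (-0.34 to 0.01) and Psmb9 (-0.43 to 0.08) exclude the size seen on day 6. The inducible average minus the other was -0.06 ± 0.11 (SD, n = 5) at the high dose and -0.04 ± 0.14 at the low dose. By pair, Psmb9 minus Psmb6 averaged -0.47 at the high dose (-0.99 to -0.10, against -0.28 to 0.18 in air rats) and -0.36 at the low dose. Psmb10 minus Psmb7 averaged -0.55 and -0.47, and Psmb8 minus Psmb5 0.20 and 0.31.

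The change of the high dose effect between the days was itself tested. This contrast includes the air and high dose rats of day 28, whose array brightness differed. The effect was larger on day 6 in 9 of 42 members and lower in 1, Psmd10, where 16.7% of all genes passed (11.2% higher and 5.49% lower). With slide as a block, without the filter on dim probes or with median centring, no member was lower. Psmb10 changed by 1.06 ± 0.12 (limma adjusted p = 2.44e-07), Psme2 by 0.96 ± 0.15 (2.44e-05), Psmb9 by 1.06 ± 0.18 (6.46e-05), Psmb8 by 1.43 ± 0.34 (0.00344) and Psma5 by 0.82 ± 0.13 (5.08e-05). The others were Psmd9, Psma3, Psmb4 and Psmd14. When arrays were centred on their median, the first 5 and Psmd9 passed (0.00282 to 0.0392), where 5.67% of all genes were higher. Psme1, the fifth inducible gene, did not pass. For the low dose effect 0 of 42 passed by limma, where 1.97% of all genes did (1.66% higher and 0.309% lower), and 6 had an unadjusted p under 0.05, against 10.5% of all genes. Psmb10 had the smallest p of these (0.42 ± 0.12, adjusted p = 0.0684), followed by Psma3, Psmd9 and Psma5, and it passed without air rat 3 of day 6 (0.0297), low dose rat 49 (0.0439) or air rat 8 of day 28 (0.03).

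Psmd9, the chaperone, was also the 1 member of 42 that differed between air rats of day 28 and of day 6, where 2.95% of all genes passed (1.87% higher and 1.09% lower). It was at -0.917, -0.898, -0.843, -1.005 and -0.973 in air rats of day 6 and at -0.23, -0.42, -0.97, -0.28 and -0.28 in air rats of day 28. Rat 8 alone lay among the day 6 rats, and the difference was 0.49 ± 0.14 (limma adjusted p = 0.0492). In 14 alternatives, among them leaving out any 1 rat other than rat 8, it did not pass (0.0629 to 0.495). The 0.495 came with array brightness as a covariate (difference 0.29). Without rat 8, Psmc2, Psmd2 and Psmc5 passed too (0.0177, 0.0298 and 0.0386). A second Psmd9 probe showed no such difference (-0.03, adjusted p = 0.881 in a fit of all probes), whereas at the high dose on day 6 both probes rose alike (0.49 and 0.51). Rat 8 had the brightest array of its group, at 358 against 216 to 295.5. Within groups, r with array brightness was -0.60 for Psmd9, -0.64 for Psmd2, -0.60 for Psmc5 and -0.46 for Psmc2. The part of brightness in these differences between air rats was not tested. The next by p were the ATPase genes Psmc2 (0.22 ± 0.06, adjusted p = 0.06) and Psmc5 (0.23 ± 0.09, adjusted p = 0.104) and the scaffold gene Psmd2 (0.30 ± 0.10, adjusted p = 0.0879).

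Rats of the same group differed from each other in many core genes at once. In high dose rats of day 28, rat 82 was the highest and rat 84 the lowest in each of Psmb1, Psmb2, Psmb3, Psmb6 and Psmb7. In air rats of day 28, rat 8 was the highest and rat 9 the lowest in all 5, and low dose rat 54 was the lowest in all 5. The mean of these 5 genes ran from -1.85 to -0.44 among high dose rats of day 28, against -0.53 to -0.11 among high dose rats of day 6. On day 28 the lowest rat of each group was the one with the dimmest array of its group. Median Cy5 intensity was 224 for rat 84, 216 for rat 9 and 240 for rat 54, against 359.5 for rat 82 and 358 for rat 8. Brightness did not order all rats: high dose rat 80 of day 28, at 360.5, averaged -1.41 over the 5 genes against -0.44 for rat 82, and rat 83, the brightest of its group at 421.5, averaged -0.69. Not all members shared this pattern. Within groups, r with Psmb3 was 0.89 to 0.94 for Psmb1, Psmb2, Psmb6 and Psmb7 and 0.75 for Psmb8. It was 0.61 for Psmb5, 0.38 for Psmb4, 0.002 for Psmd1 and -0.002 for Psmb10. For Psmc6, Psmd9, Psmc5, Psmc2 and Psmd2 it ran from -0.69 to -0.58. The SD within groups was 0.13 for Psmb10 and 0.12 for Psmb4, compared with 0.43 for Psmb3, 0.40 for Psmb2 and 0.40 for Psmb8.

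**Figure D4:**
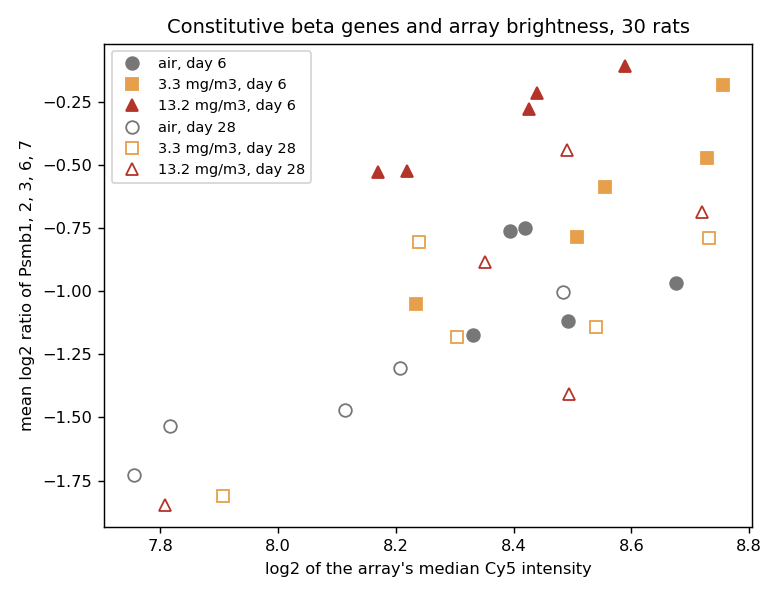
Mean log2 ratio of Psmb1, Psmb2, Psmb3, Psmb6 and Psmb7 in each of 30 rats against the log2 median Cy5 intensity of its array; filled symbols are day 6 and open symbols day 28. Dimmer arrays tend to lie lower, and the high dose rats of day 6 (-0.53 to -0.11) lie above air rats of day 6 (-1.17 to -0.75) at intensities of 288 to 385 and 322 to 409.

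With the brightness of the array as a covariate, a fit added after these values were seen, 30 members rose and 1 fell at the high dose on day 6. All 27 that rose without it were among the 30. The SE of Psmb3 fell from 0.25 to 0.17 and its difference was 0.78 in place of 0.66, and Psmb7 passed at an adjusted p of 0.000748. The effect between days then passed in 24 members and the difference between doses in 22. The share of all genes that passed in this fit was not counted, so its counts of members cannot be set against it. Psmb8 kept a difference of 1.73, Psmb9 of 0.91, Psmb10 of 0.89 and Psme2 of 0.95.

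Genes that work with the proteasome were counted beside all genes, of which 36.5% passed in high dose rats of day 6, 21% upward. Of 12 measured genes of assembly and regulation, 6 rose at the high dose on day 6 and none fell, with a median of 0.24. Psmf1, which encodes an inhibitor and assembly partner of the core, rose by 0.56 ± 0.11 (limma adjusted p = 0.000164). Txnl1, a thioredoxin on the regulatory particle, and Usp14, which trims ubiquitin there, rose by 0.29 ± 0.06 (0.00057) and 0.33 ± 0.08 (0.00209). Nfe2l1, the transcription factor that raises subunit genes when the proteasome is impaired, rose by 0.28 ± 0.09 (0.0132), and Pomp, the chaperone of new cores, by 0.20 ± 0.07 (0.0291). Nfe2l2, the antioxidant regulator, was at 0.09 ± 0.10 (0.504). Of 13 ubiquitin and shuttle genes 5 rose and 1 fell. Vcp, the ATPase that extracts ubiquitinated proteins, rose by 0.67 ± 0.17 (0.00225), and its cofactors Ufd1 and Nploc4 by 0.46 ± 0.11 (0.00162) and 0.26 ± 0.08 (0.00923), while the shuttle gene Ubqln2 fell by 0.40 ± 0.07 (3.17e-05).

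Genes of class I antigen presentation rose as well. Of 20 measured class I presentation genes 12 rose and none fell at the high dose on day 6, with a median of 0.63. Tapbp, which encodes the peptide-loading chaperone tapasin, rose by 1.34 ± 0.12 (limma adjusted p = 1.53e-09), and Tap1, the neighbour of Psmb9, by 1.15 ± 0.21 (8.26e-05). B2m, the light chain of class I molecules, rose by 1.02 ± 0.13 (2.85e-07) and the class I gene RT1-N3 by 0.97 ± 0.11 (1.05e-07). Tap2, the partner of Tap1, was at 0.24 ± 0.17 (0.28). Class I genes of the rat are close copies of one another, so probes may share their signal. At the low dose 0 of 20 rose and 2 fell, where 4.96% of all genes were higher and 1.75% lower. On day 28 at the high dose 0 of 20 passed by limma, where 0.185% of all genes did, with Tap1 at 0.09 ± 0.21.

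Interferon gamma genes rose in high dose rats of day 6 as well. Of 16 measured genes of that list 14 rose at the high dose on day 6 and none fell, with a median of 0.75. Cxcl10, a chemokine, rose by 4.73 ± 0.27 (limma adjusted p = 1.73e-13), Gbp2, a guanylate-binding protein, by 1.28 ± 0.15 (9.56e-08) and the receptor chain Ifngr2 by 0.99 ± 0.11 (2.06e-08). Irf1, a transcription factor of the pathway, rose by 0.59 ± 0.10 (3.14e-05). Cxcl11 passed too (3.74e-16), with a signal in air rats that was not well above background, so no fold is given. Ifng itself was not well above background. At the low dose 2 of 16 rose (12.5%, against 4.96% of all genes), Cxcl10 (1.59 ± 0.27, adjusted p = 0.000217) and Cxcl11 (0.0252), while Irf1 was at -0.15 ± 0.10. On day 28 at the high dose 0 of 16 passed by limma, where 0.185% of all genes did.

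Markers of other cells were read in the same lungs, where 21% of all genes were higher and 15.5% lower at the high dose on day 6. At the high dose on day 6, 5 of 7 leukocyte markers rose, 10 of 12 of macrophages and monocytes, 10 of 10 of T cells, 6 of 6 of neutrophils, 8 of 9 of dividing cells, 2 of 8 of NK and cytotoxic cells, 2 of 4 of dendritic cells and 1 of 4 of B and plasma cells. Of red blood cell markers 4 of 6 fell (median -0.68), as did 2 of 10 of lung epithelium and endothelium, and 0 of 7 heart muscle genes passed by limma. The mean of T cell markers ran from -0.61 to -0.32 in air rats and from -0.16 to 0.34 in high dose rats, and that of macrophage markers from 0.45 to 0.60 and from 1.34 to 2.48. That of leukocyte markers ran from 0.45 to 0.79 and from 0.84 to 1.64. Elane and Mmp8 of the neutrophil list and Xcr1 of the dendritic cell list were not well above background. At the low dose, where 4.96% of all genes were higher, 5 of 6 neutrophil and 7 of 9 dividing cell markers rose. So did 4 of 12 macrophage, 1 of 7 leukocyte and 0 of 10 T cell markers. On day 28 at the high dose, where 0.185% of all genes passed, Batf3 of the dendritic cell list rose (0.52 ± 0.11, limma adjusted p = 0.0357). No other gene of these lists passed. The part of these cells in the proteasome differences was not tested.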

How the data were processed

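Each rat's deposited file gives the intensity of each spot from Feature Extraction 11.0.1.1 (Agilent), per the file headers. The deposited value table gives log2 ratios, and the sources used here do not say how the authors made them. Lung RNA was labelled with Cy5 and a reference with Cy3, per the labels' protocols, which name the reference both as mouse and as rat; it is shared by all arrays. Rats labelled with the nanoparticle at a dose of 0 were taken as the air group of the treatment protocol.

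Median spot intensities were corrected with normexp (offset 50), and log2 Cy5 over Cy3 was normalized by loess within arrays. Outlier-flagged and control spots were left out. Probes well above background on at least 5 of 30 arrays were kept (20853 of 30367) and named through RefSeq GRCr8, and the probe with the highest mean Cy5 intensity stood for a gene. Psmd9 and Psme4 had 2 probes. Rat subunit genes have processed copies in the genome, and cross-hybridisation was not tested. Group means of all 30 arrays were fitted with limma 3.58.1 in R 4.3.3, and 9 contrasts were adjusted by Benjamini-Hochberg over 18421 genes. SE and adjusted p are from this fit unless stated. The replicates are separate rats, whose number limits the precision.

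The members, gene lists and tests were chosen with earlier results of these data known. Named by rule are the 5 inducible genes and their 3 counterparts, for the high dose on day 6 the 8 other members of smallest p, the 4 with the smallest p in each other comparison, and in each pathway list the 4 with the smallest p and a fixed panel; Nlrc5 of that panel was not measured by name, and 1 gene of it is not reported here.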

Additional observations from a re-analysis of the deposited data

Results flagged for a closer look

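In a group of 5 rats, 4 values lay far from the other rats, out of 144 groups of values examined; chance gives about 1 in 20. Low dose rat 47 of day 6 was low in Psmb8, at -1.33 against -0.51 for the nearest rat, and in Psme1, at 0.995 against 1.35. High dose rat 77 of day 6 was high in Psmb6, at 0.0819 against -0.152. Air rat 8 of day 28 was low in Psmd9, at -0.973 against -0.425.

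The effect of the high dose differed between day 6 and day 28 in 10 members, by limma's test of the difference over all genes. The effect was larger on day 6 by 1.43 in Psmb8, 1.06 in Psmb9, 1.06 in Psmb10, 0.956 in Psme2, 0.911 in Psmd9, 0.816 in Psma5, 0.67 in Psmd14, 0.437 in Psma3 and 0.376 in Psmb4. In Psmd10 the difference was -0.281, at an adjusted p that rounds to 0.05, and it did not pass with slide as a block. The second probe of Psmd9 gave 0.47 in place of 0.91 (adjusted p = 0.0171).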

How the results depend on the processing

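The count of members past the threshold at the high dose on day 6 (28 of 42) was within 1.5 times of that value under every alternative run except median centring (6) and a minimum of 1.5-fold (11), and was 19 to 28 when single rats were left out. The excess of the inducible genes over the others moved by less than the spread between rats in all alternatives run, in all 4 comparisons with air. With median centring the count at the low dose was 0, between the doses 3, between air rats of both days 0 and for the high dose effect between days 6. With a minimum of 1.5-fold these were 0 at the low dose, 4 between the doses and 0 between air rats. Slide as a block gave 2 at the low dose (Psmc3ip and Psmd14) and 0 between air rats. The last was also 0 without a filter on dim probes and with probes averaged. Fitting just the groups compared, the counts were 0 at the low dose and 3 between air rats. Array brightness as a covariate, chosen after seeing the data, gave 2 at the low dose, 22 between the doses, 0 between air rats and 24 for the high dose effect. Leaving out single rats gave 1 to 4 at the low dose, 0 to 7 between air rats (7 without air rat 8 of day 28), 0 to 1 at the high dose on day 28 (1 without the same rat) and 0 to 2 for the low dose effect (2 without it). It gave 5 to 9 between the doses and 8 to 11 for the high dose effect. The cause of these shifts was not tested, beyond the fold minimum and the smaller fits, which follow from their construction. Of the 8 catalytic and activator genes, Psmb8, Psmb9, Psmb10 and Psme2 kept their call at the high dose on day 6 in every alternative. Psma2 and Psmd8, for example, lost theirs with median centring (adjusted p = 0.149 and 0.0942). No paired analysis was possible because the replicate numbers identify single rats and no number occurs in more than 1 group.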
